A study of Mus musculus with 6 samples.

Results

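The 47 genes described here are mouse chemokines, cytokines and their receptors, a list of symbols chosen with earlier results of these data known, out of 56748 genes in the deposited table. They comprise 11 CC chemokines, 10 CXC and CX3C chemokines, 4 chemokine receptors, 13 cytokines and 9 cytokine receptor subunits. Brain tissue of mice carrying implanted MCF10DCIS cells was sequenced at 28 days and at 3 days after implantation, as polyadenylated RNA, with 3 libraries at each time. MCF10DCIS is a human breast line that models ductal carcinoma in situ, and here it expressed a fusion of NanoLuc luciferase to CD63, a tetraspanin of extracellular vesicles. Both groups shared the implant, and time was the only labelled difference. Strain, sex, age and site of implantation are not given in the sources used here, and unimplanted mice were not analysed here. The labels do not say whether libraries of the same day are separate animals, so a p-value measures only the spread between these libraries, which may be technical.

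Chemokines are small secreted proteins that bind G protein-coupled receptors and direct the movement of leukocytes. Some are made steadily in brain, such as Cx3cl1 on neurons and Cxcl12 along vessels and meninges, whereas others, such as Cxcl9 and Cxcl10, are switched on by interferons or by NF-kB signalling. Cytokines of the interleukin-1, interleukin-6, TNF and TGF-beta families signal through receptors present on glia, endothelium and neurons. Bulk tissue was sequenced, so fewer cells of a type and less RNA per cell cannot be told apart.

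Library depth ran from 11958137 to 16059196 reads assigned to genes. Levels below are normalized counts, which are reads divided by the size factor of the library, and the values of each day are listed for replicates 1, 2 and 3. The 4 neuron markers summed to 62994 to 67111 normalized counts at day 28 and to 60859 to 65386 at day 3, with 1 of them wholly higher and 1 wholly lower at day 28. Day 3 libraries stood apart from each other. The summed level of 23 interferon-stimulated genes was 1213 to 1477 normalized counts in the day 28 libraries and 16724, 3569 and 1285 in the day 3 libraries. The 5 cerebellar markers summed to 403 to 1993 normalized counts in the day 28 libraries and to 13350, 13543 and 708 in the day 3 libraries. Day 3 replicate 2 also held 67650 normalized counts of the liver gene Alb, whereas the other 5 libraries held 21.1 to 1139.

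None of the chemokine, cytokine or receptor genes passed the test between day 28 and day 3. The members were fitted with all genes in limma on log2(normalized count + 1), and 30 of the 47 had the mean normalized count of at least 10 that the fit required. At a Benjamini-Hochberg adjusted p under 0.05, limma called 0 of these 30 members, against 0.192% of all 16162 genes tested. The lowest adjusted p of a member in limma was 0.159, for Il1r1. At an unadjusted limma p under 0.05 there were 8 members, 3 higher and 5 lower at day 28, which is 26.7% of the members beside 13.4% of all genes. The voom form of limma on recovered reads called 0 members and 0 genes in all. The call was sensitive to the libraries used: limma called 31 of all genes with 6 libraries, 618 without day 3 replicate 3, 49 without day 3 replicate 1, and 1 or 2 without each of the other 4 in turn. Leaving out day 3 replicate 3 was the single setting that called members, and they were Il1r1 and Il6ra.

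The 3 libraries of day 28 lay wholly above those of day 3 for 4 members (Ccl27a, Cxcl12, Ackr3 and Il33), or 13.3% of those tested, beside 9.71% of all genes. They lay wholly below for 4 other members (Ccl9, Ackr1, Il1r1 and Il6st), beside 9.21% of all genes. These counts are close to their background. The count below reached 10 without day 3 replicate 3, and the count above reached 8 without day 3 replicate 1. Groups of fewer libraries separate more readily, and the shares of all genes under these settings are not given here. Neither rise is therefore read as a result about the members. For each of the 8 members with separated groups the exact two-sided permutation p was 0.10, the smallest that 3 against 3 libraries can give. The median log2 difference, day 28 minus day 3, was -0.12 over the tested members and -0.0091 over all tested genes, with 13 members positive and 17 negative. This median was -0.12 also with Cxcl9 set to the bound given for it further on. Of the negative members, Ccl5, Cxcl9, Cxcl10, Cxcl11 and Cxcl13 met the filter only through day 3 replicate 1, where they were high. The sign count and the median thus lean on that library.

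Detection was highest in day 3 replicate 1. At least 1 read was found for 36, 37 and 33 of the 47 members in the day 28 libraries and for 45, 37 and 38 in the day 3 libraries. At least 10 reads were found for 25, 25 and 23 members at day 28 and for 39, 27 and 24 at day 3. Replicate 1 of day 3 thus had reads for all members but Il6 and Il10, while the other 5 libraries ranged from 33 to 38. In all 6 libraries 30 members were detected, and 26 of these were among the tested. The 17 untested members together had 29, 22 and 24 reads in the day 28 libraries and 195, 51 and 40 reads in the day 3 libraries. Of these, 11 had their highest level in day 3 replicate 1, 3 in day 3 replicate 2 and 1 in day 3 replicate 3. The shares over all untested genes are not given here, so these counts are not read as a result about the members.

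**Figure D1:**
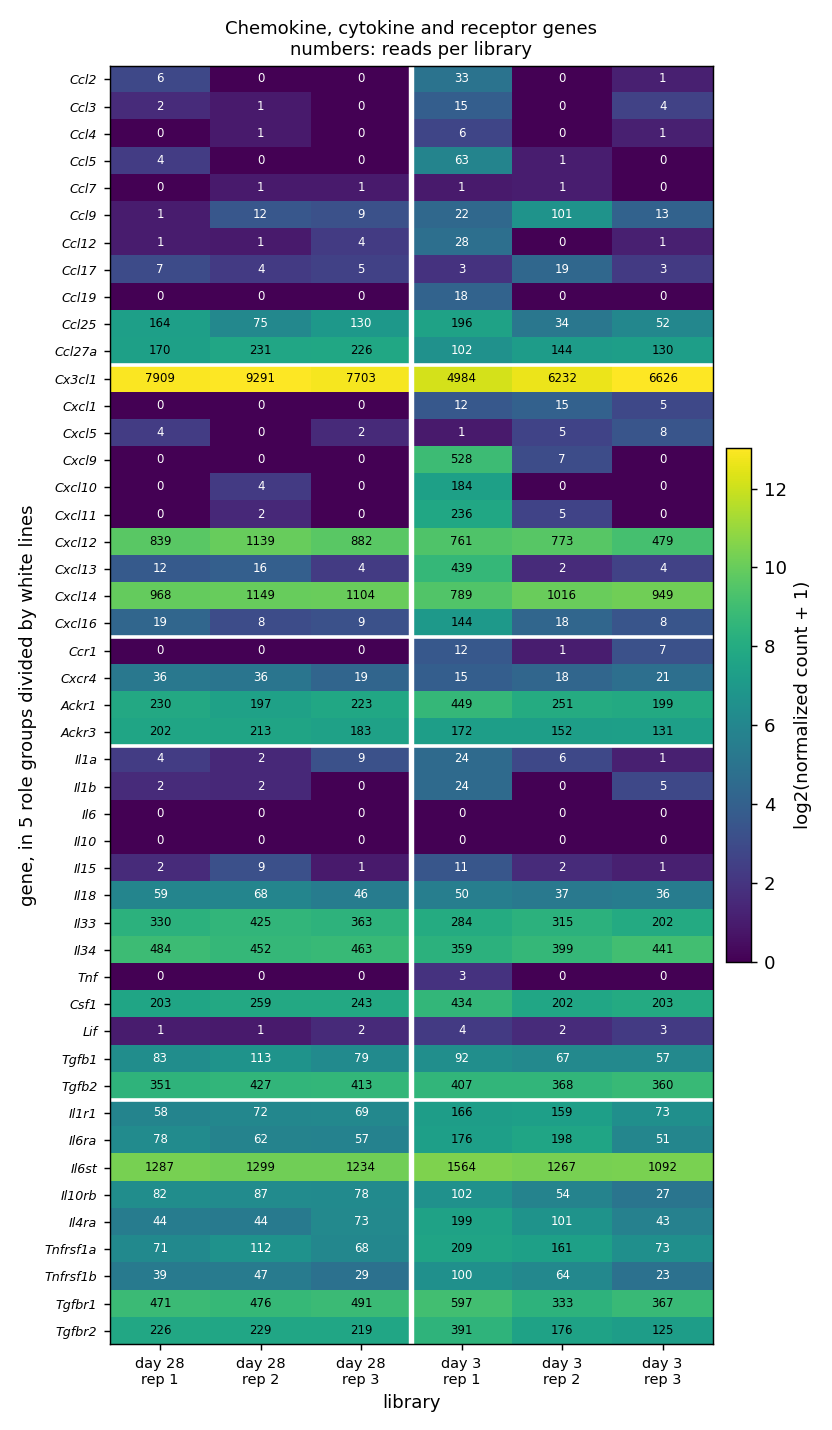
Reads of the 47 genes (printed numbers) in the 3 day 28 and 3 day 3 libraries, coloured by log2(normalized count + 1), with white lines between the role groups. Most steadily read genes have like colours across libraries, and the day 3 replicate 1 column holds the brightest cells of Cxcl9, Cxcl10, Cxcl11 and Cxcl13.

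The interferon-inducible ligands of the receptor CXCR3 were read almost wholly in a single library. Cxcl9, which attracts activated T cells, had 0, 0 and 0 normalized counts at day 28 and 484, 7.20 and 0 at day 3. Cxcl10, another CXCR3 ligand, had 0, 3.57 and 0 normalized counts at day 28 and 169, 0 and 0 at day 3. Cxcl11, the third ligand of that receptor, had 0, 1.79 and 0 normalized counts at day 28 and 216, 5.14 and 0 at day 3. The library of day 3 replicate 1 held 98.7% of all Cxcl9 reads, 97.9% of Cxcl10 reads and 97.1% of Cxcl11 reads, and the groups of all 3 genes overlapped. The limma log2 differences were -3.99 (SE 2.05) for Cxcl9, -1.74 (SE 2.12) for Cxcl10 and -2.97 (SE 1.89) for Cxcl11, with adjusted p of 0.439, 0.768 and 0.538. Fitted values of such genes depend on the added count of 1. The Cxcl9 difference was -5.98 without day 3 replicate 3, the Cxcl11 difference -4.70 without it, and the Cxcl10 difference -2.97 without day 3 replicate 2 or 3. With a floor of 3 reads over the day 28 group, Cxcl9 was at least 173-fold lower at day 28, and this bound was 3.81 without day 3 replicate 1. A bound of this kind covers counting error of the day 28 zeros only. The day 3 mean is taken as measured, without its own counting error. None of these 3 genes met the filter for testing once day 3 replicate 1 was left out.

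Cxcl13, the B cell attractant that binds CXCR5, followed the same library. It had 11.98, 14.3 and 3.79 normalized counts at day 28 and 402, 2.06 and 4.87 at day 3. Only day 3 replicate 1 was high, 28.1 times the next library, and day 3 replicates 2 and 3 lay below day 28 replicates 1 and 2. Cxcl16, a membrane-bound chemokine that binds CXCR6, had 19.0, 7.14 and 8.53 normalized counts at day 28 and 132, 18.5 and 9.74 at day 3. Its highest library was again day 3 replicate 1, at 6.95 times the next, and the remaining 5 overlapped. The limma log2 difference was -0.98 (SE 1.62, adjusted p = 0.837) for Cxcl13 and -1.39 (SE 0.90, adjusted p = 0.546) for Cxcl16. For Cxcl13, leaving out day 3 replicate 2 gave -2.31, leaving out day 3 replicate 3 gave -1.84 and leaving out day 28 replicate 3 gave -0.46. For Cxcl16, leaving out day 3 replicate 1 gave -0.32, leaving out day 3 replicate 3 gave -2.14 and leaving out day 3 replicates 1 and 2 gave 0.11. In GENCODE M21, 11 members share exon sequence with another gene, 2 of them on the same strand. Cxcl16 shares it with Zmynd15 on the opposite strand, at 0.893 to 7.58 normalized counts at day 28 and 0 to 12.8 at day 3. Whether reads were counted by strand is not given in the sources used here.

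Cxcl1, a neutrophil attractant that binds CXCR2, differed in another way, since every day 3 library contributed. It had 0, 0 and 0 reads at day 28 and 12, 15 and 5 reads at day 3. Its groups were separate, but the gene lay under the filter and was not tested. Against a floor of 3 reads over the day 28 group, with the day 3 mean taken as measured, it was at least 11.5-fold lower at day 28. That bound was lowest, at 7.43, without day 28 replicate 2, since fewer reads then stand behind the floor. Cxcl5, which also binds CXCR2, had 4, 0 and 2 reads at day 28 and 1, 5 and 8 reads at day 3, with overlapping groups.

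Cxcl11, Cxcl16 and Ccl5 were also highest in day 3 replicate 1, but no upstream sequence was found for them. The upstream sequences of 4 other chemokine genes are shown because the genes were read mainly in that library (Cxcl9, Cxcl10, Cxcl13) or in all libraries of day 3 (Cxcl1). Each is the 250 bases before the RefSeq start site in GRCm38.p6, which is an older build than that of the deposited table, written 5′ to 3′ along the gene. They lie at chr5:92328080-92328329 on the minus strand for Cxcl9, chr5:92348890-92349139 on the minus strand for Cxcl10, chr5:95956689-95956938 on the plus strand for Cxcl13 and chr5:90890995-90891244 on the plus strand for Cxcl1. Capitals mark matches, on either strand, to the interferon-stimulated response element (a pair of GAAA repeats with 2 bases between them), the gamma-activated site (TTCNNNGAA) or the NF-kB consensus.
Cxcl9: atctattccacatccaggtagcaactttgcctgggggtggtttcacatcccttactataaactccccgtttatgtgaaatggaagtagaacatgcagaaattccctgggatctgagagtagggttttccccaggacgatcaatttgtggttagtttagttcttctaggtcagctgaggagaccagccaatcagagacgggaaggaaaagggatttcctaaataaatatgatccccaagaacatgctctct
Cxcl10: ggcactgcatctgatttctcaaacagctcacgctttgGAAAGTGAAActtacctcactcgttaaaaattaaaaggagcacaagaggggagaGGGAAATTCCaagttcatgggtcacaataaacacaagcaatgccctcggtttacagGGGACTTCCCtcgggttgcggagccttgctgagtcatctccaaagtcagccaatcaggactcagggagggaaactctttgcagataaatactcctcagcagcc
Cxcl13: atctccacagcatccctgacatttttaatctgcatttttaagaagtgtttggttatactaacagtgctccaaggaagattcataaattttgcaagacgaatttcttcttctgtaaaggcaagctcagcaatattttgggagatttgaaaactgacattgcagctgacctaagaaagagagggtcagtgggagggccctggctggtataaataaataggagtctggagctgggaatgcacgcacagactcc
Cxcl1: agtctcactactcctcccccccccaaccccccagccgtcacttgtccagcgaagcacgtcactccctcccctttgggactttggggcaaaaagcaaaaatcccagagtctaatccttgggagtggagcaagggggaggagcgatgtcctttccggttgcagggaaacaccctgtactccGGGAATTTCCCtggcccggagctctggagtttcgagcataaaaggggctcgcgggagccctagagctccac
The Cxcl10 window held 1 response element, which is the capitalised run nearest its 5′ end, and 2 NF-kB matches. The Cxcl1 window held 2 overlapping NF-kB matches, and the Cxcl9 and Cxcl13 windows held none of these letters. Of 32536 windows of this length, 2.98% held the response element, 7.04% the gamma-activated site and 3.92% the NF-kB consensus. At least 1 window was found for 36 of the 47 members, and some had more than 1. A member was counted if any of its windows matched, so counts of members and shares of windows are in unlike units. The response element was present in 4 members (Ccl19, Cxcl10, Cxcl14 and Tnfrsf1b) and the gamma-activated site in 4 (Ccl17, Cxcl14, Tnfrsf1a and Tnfrsf1b). The NF-kB consensus was present in 6 (Ccl9, Csf1, Cxcl1, Cxcl10, Il1r1 and Il6). A match is a description of letters and not evidence of a bound site.

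The CC chemokine genes Ccl5, Ccl2 and Ccl12 were near 0 outside day 3 replicate 1. Ccl5, a chemokine that attracts T cells and monocytes, had 3.99, 0 and 0 normalized counts at day 28 and 57.7, 1.03 and 0 at day 3. Of its reads, 92.6% came from day 3 replicate 1, and the limma log2 difference was -1.53 (SE 1.82, adjusted p = 0.762). Leaving out day 3 replicate 3 gave -2.67, leaving out day 28 replicate 1 gave -2.30, and the gene was not tested without day 3 replicate 1. Ccl2, the main CCR2 ligand, had 6, 0 and 0 reads at day 28 and 33, 0 and 1 reads at day 3. Ccl12, a mouse CCR2 ligand, had 1, 1 and 4 reads at day 28 and 28, 0 and 1 reads at day 3. For both genes the groups overlapped, and day 3 replicate 1 held 82.5% of the Ccl2 reads and 80.0% of the Ccl12 reads.

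Ccl3 and Ccl4, chemokines of activated myeloid cells, were low in every library. Ccl3 had 2, 1 and 0 reads at day 28 and 15, 0 and 4 reads at day 3. Ccl4 had 0, 1 and 0 reads at day 28 and 6, 0 and 1 reads at day 3. Both peaked in day 3 replicate 1 with overlapping groups. Ccl19, the CCR7 ligand that guides T cells and dendritic cells, had 18 reads in day 3 replicate 1 and 0 in each other library, at day 28 and day 3 alike. Against the floor, with the day 3 mean of these 18 reads taken as measured, it was at least 5.82-fold lower at day 28. Without day 3 replicate 1 it had no read at all. Its near-identical pseudogene copies make its counts uncertain. Ccl7, a CCR2 ligand, had 0, 1 and 1 reads at day 28 and 1, 1 and 0 reads at day 3. Ccl17, a CCR4 ligand, had 7, 4 and 5 reads at day 28 and 3, 19 and 3 reads at day 3, highest in day 3 replicate 2.

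Ccl9, a mouse CCR1 ligand of myeloid cells, was lower at day 28 in every library. It had 0.998, 10.7 and 8.53 normalized counts at day 28 and 20.2, 104 and 15.8 at day 3. The groups did not overlap, and day 3 replicate 2 stood at 5.15 times the next library. The limma log2 difference was -2.46 (SE 0.93, adjusted p = 0.297), against -1.64 when day 3 replicate 2 was left out. The same day 3 replicate 2 was the library with the highest summed level of 7 neutrophil markers, at 80.2 normalized counts, against 3.57 to 9.48 at day 28 and 10.1 and 17.0 in the other day 3 libraries. In that library the 5 liver markers also summed to 90732 normalized counts, against 871 to 1723 at day 28 and 32.1 and 669 in the other day 3 libraries. The part of neutrophils and of liver transcripts in the Ccl9 difference was not tested.

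Ccl27a and Ccl25, CC chemokines that bind CCR10 and CCR9, were read in every library. Ccl27a had 169.7, 206 and 214 normalized counts at day 28 and 93.4, 148 and 158 at day 3. No overlap was seen between days, with day 3 replicate 1 lowest, and the limma log2 difference was 0.59 (SE 0.23, adjusted p = 0.319). Ccl27a shares exon sequence with Il11ra1 on the opposite strand and has the near-identical copy Ccl27b, so its counts are uncertain. Il11ra1 had 208, 211 and 195 normalized counts at day 28 and 278, 259 and 169 at day 3. Ccl25 had 164, 67.0 and 123 normalized counts at day 28 and 179.5, 35.0 and 63.3 at day 3. Its groups overlapped, both days spanned a wide range, and the limma log2 difference was 0.58 (SE 0.56, adjusted p = 0.703). Ccl25 shares exon sequence with Elavl1 on the opposite strand, which had 801 to 858 normalized counts at day 28 and 778 to 975 at day 3. The Ccl25 difference became 1.22 without day 3 replicate 1 and 0.051 without day 3 replicate 2.

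**Figure D2:**
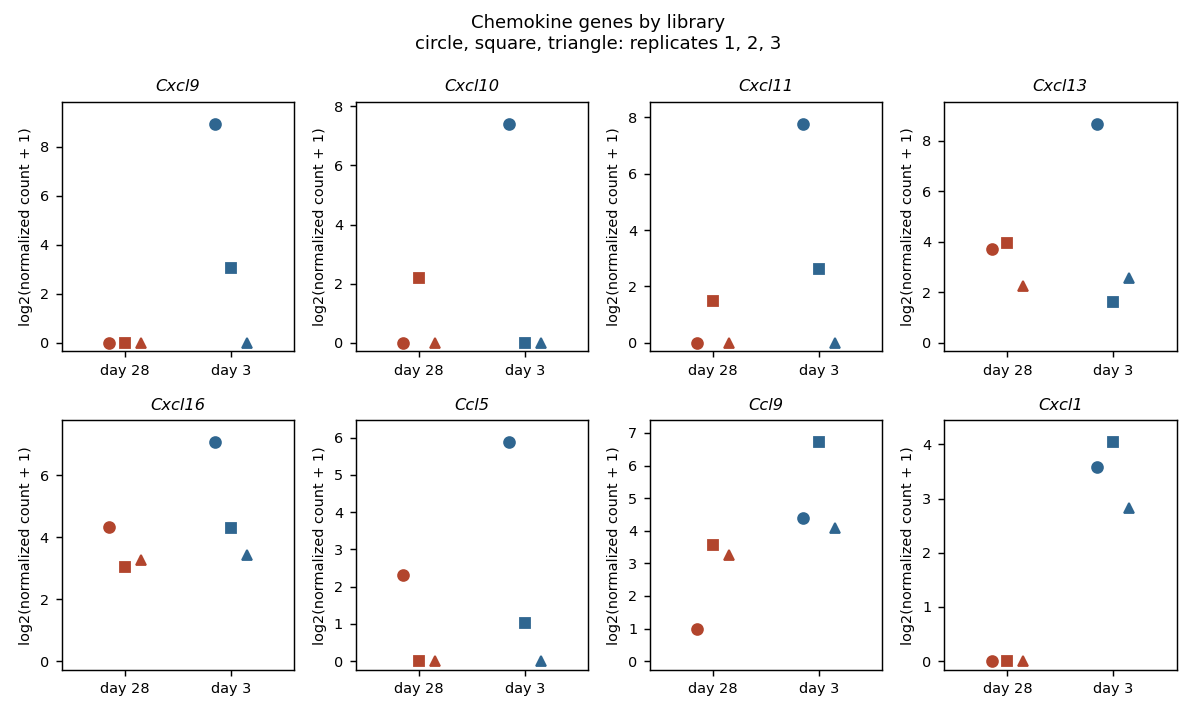
Level of 8 chemokine genes in each library as log2(normalized count + 1), with day 28 left and day 3 right in each panel and a marker shape per replicate number. Cxcl9, Cxcl10, Cxcl11, Cxcl13, Cxcl16 and Ccl5 are highest in the circle of day 3 replicate 1, Ccl9 is highest in the square of day 3 replicate 2, and Cxcl1 is at 0 in all day 28 libraries.

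The steadily expressed chemokines had small differences. Cxcl12, the CXCR4 ligand of vessels and meninges, had 838, 1017 and 836 normalized counts at day 28 and 697, 795 and 583 at day 3. All day 28 libraries lay above all day 3 libraries, and the limma log2 difference was 0.38 (SE 0.14, adjusted p = 0.286). It stayed positive under every setting tried, from 0.26 without day 3 replicate 3 to 0.61 without day 3 replicates 1 and 2.

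Cx3cl1, the neuronal ligand of the microglial receptor CX3CR1, averaged 7831 ± 501 normalized counts at day 28 and 6346 ± 1750 at day 3 (SD, n = 3 each). Its libraries had 7896, 8296 and 7301 normalized counts at day 28 and 4565, 6408 and 8064 at day 3. Its day 3 replicates 1 and 2 were the lowest of the 6 and day 3 replicate 3 was within the day 28 range, so the groups overlapped. The limma log2 difference was 0.34 (SE 0.18, adjusted p = 0.454), against -0.044 when day 3 replicates 1 and 2 were left out. Cxcl14, a chemokine found in brain and skin, averaged 1013 ± 41.6 normalized counts at day 28 and 974 ± 225 at day 3 (SD, n = 3 each), a log2 difference of 0.08 (SE 0.16).

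**Figure D3:**
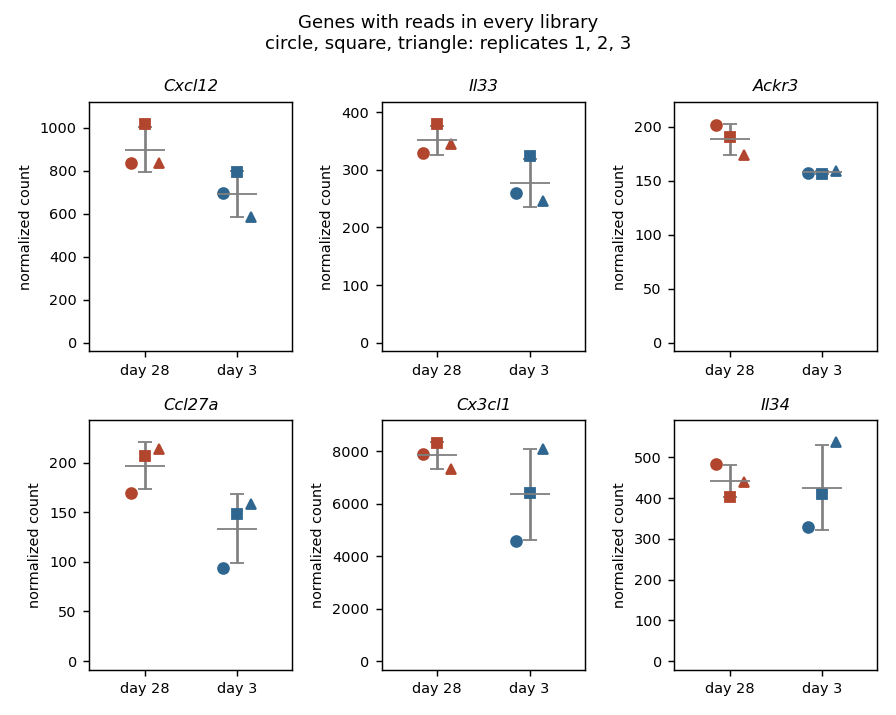
Normalized counts of 6 genes with reads in every library, with day 28 left and day 3 right, points for replicates and a grey mark and bar for the mean ± SD (n = 3). The day 28 libraries lie above the day 3 libraries for Cxcl12, Il33, Ackr3 and Ccl27a and overlap them for Cx3cl1 and Il34.

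Of the chemokine receptors, Ackr3, a scavenger of CXCL12, varied little within day 3. It had 202, 190.2 and 173 normalized counts at day 28 and 158, 156 and 159 at day 3. The groups did not overlap, and the limma log2 difference was 0.25 (SE 0.15, adjusted p = 0.517). Cxcr4, the signalling receptor for CXCL12, had 35.9, 32.1 and 18.01 normalized counts at day 28 and 13.7, 18.5 and 25.6 at day 3. Its day 28 replicate 3 lay inside the day 3 range, and the log2 difference was 0.54 (SE 0.47, limma adjusted p = 0.663).

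Ackr1, a chemokine scavenger of venules and red cells, had 229.6, 176 and 211 normalized counts at day 28 and 411, 258 and 242 at day 3. The groups did not overlap, with day 3 replicate 1 highest, and the limma log2 difference was -0.53 (SE 0.22, adjusted p = 0.346). The 5 red blood cell markers summed to 1602 to 2146 normalized counts at day 28 and 2247 to 5206 at day 3, each with a negative difference at an unadjusted limma p under 0.05, and were highest in other libraries than day 3 replicate 1. Ackr1 shares exon sequence on the same strand with Cadm3, a neuronal adhesion gene, so reads of the pair cannot be told apart with certainty. Cadm3 had 5561, 6321 and 5923 normalized counts at day 28 and 8606, 7471 and 5864 at day 3. The 5 endothelium markers were all highest in day 3 replicate 1. They summed to 2166 to 2294 normalized counts at day 28 and to 3305, 1940 and 2215 at day 3. The part of Cadm3, of red cells and of endothelium in the Ackr1 values was not tested. The Ackr1 difference was -0.29 without day 3 replicate 1.

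Ccr1, a receptor for CCL3, CCL5 and CCL9 on myeloid cells, had 0, 0 and 0 reads at day 28 and 12, 1 and 7 reads at day 3. The groups did not overlap, day 3 replicate 2 rested on a single read, and the gene was not tested. With the day 3 mean taken as measured, it was at least 7.25-fold lower at day 28 against the floor. Without day 28 replicate 2 it was at least 4.69-fold lower. Among 15 further chemokine receptors, 4 were tested and limma called 0, with 0 also at an unadjusted p under 0.05. Their median log2 difference was 0.22, and Cx3cr1, the microglial fractalkine receptor, had the smallest p with a difference of 0.28 (SE 0.16, limma adjusted p = 0.4996). Ackr2, a scavenger of inflammatory CC chemokines, had a difference of 0.34. Cxcr3, the receptor for Cxcl9, Cxcl10 and Cxcl11, had 0, 0 and 0 reads at day 28 and 1, 1 and 0 reads at day 3.

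Most cytokine genes that mark acute inflammation were barely read. Il6 and Il10 had no read in any library, which allows a level of up to 0.0348 RPM over the 86321535 reads of all 6 libraries (a floor of 3 reads, counting error only). Tnf had 0, 0 and 0 reads at day 28 and 3, 0 and 0 reads at day 3, too few for a fold. Il1b, a secreted interleukin-1, had 2, 2 and 0 reads at day 28 and 24, 0 and 5 reads at day 3. Il1a, its cell-associated relative, had 4, 2 and 9 reads at day 28 and 24, 6 and 1 reads at day 3. Both interleukin-1 genes were highest in day 3 replicate 1 and both overlapped between days. Lif, an interleukin-6 family cytokine, had 1, 1 and 2 reads at day 28 and 4, 2 and 3 reads at day 3. Il15, which sustains NK and memory T cells, had 2, 9 and 1 reads at day 28 and 11, 2 and 1 reads at day 3. The Lif groups did not overlap after normalization, at 0.893 to 1.90 and 2.06 to 3.66 normalized counts for day 28 and day 3, on reads too few to test.

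Cytokines made by resident brain cells were read in every library and differed little. Il33, a nuclear alarmin of oligodendrocytes and astrocytes, had 329, 379 and 344 normalized counts at day 28 and 260.1, 324 and 246 at day 3. All day 28 libraries were above all day 3 libraries, and the limma log2 difference was 0.35 (SE 0.15, adjusted p = 0.353). Il34, the neuronal ligand of CSF1R, averaged 442 ± 39.9 normalized counts at day 28 and 425 ± 105 at day 3 (SD, n = 3 each). Csf1, the other CSF1R ligand, had 203, 231 and 230.3 normalized counts at day 28 and 398, 208 and 247 at day 3. The Il34 groups overlapped, and Csf1 was high in day 3 replicate 1 alone. Their limma log2 differences were 0.08 (SE 0.18, adjusted p = 0.886) for Il34 and -0.30 (adjusted p = 0.609) for Csf1, and Csf1 stood at -0.035 without day 3 replicate 1.

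Il18, an interleukin-1 family cytokine, averaged 54.4 ± 9.40 normalized counts at day 28 and 42.6 ± 4.03 at day 3. Tgfb1, a microglial and vascular growth factor, averaged 86.2 ± 13.3 normalized counts at day 28 and 74.2 ± 8.74 at day 3. Tgfb2, made by neurons and glia, averaged 374 ± 21.4 normalized counts at day 28 and 396 ± 36.2 at day 3 (SD, n = 3 each for the 3 genes). Their log2 differences of 0.34, 0.21 and -0.08 were within the spread of the libraries, with limma adjusted p of 0.660, 0.747 and 0.823.

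**Figure D4:**
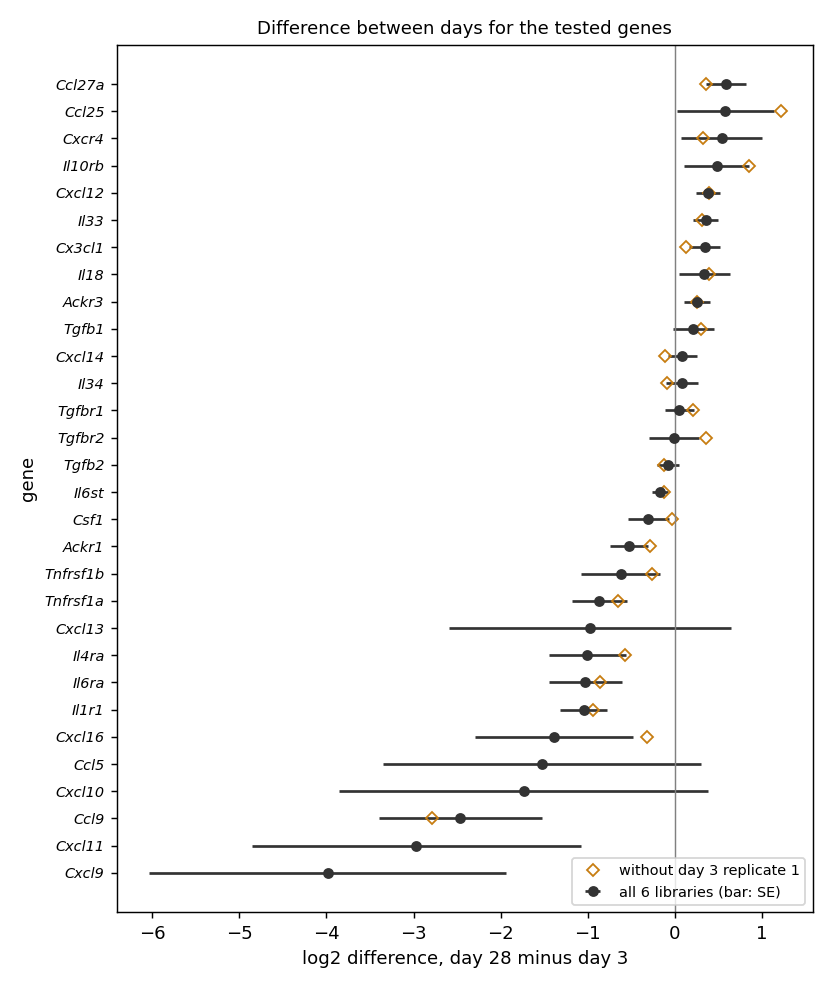
Difference between days for the 30 tested genes as log2, day 28 minus day 3, from limma with all 6 libraries (black, bar: SE) and without day 3 replicate 1 (open diamonds). The differences ran from -3.99 for Cxcl9 to 0.59 for Ccl27a, and Ccl5, Cxcl9, Cxcl10, Cxcl11 and Cxcl13 have no diamond because they were not tested without that library.

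The cytokine receptors were all read in every library, and 7 of the 9 had negative differences, with a median of -0.63. Their highest level was in day 3 replicate 1 for 7 of the 9. Il1r1, the signalling receptor of interleukin-1, had 57.9, 64.3 and 65.4 normalized counts at day 28 and 152, 163 and 88.8 at day 3. The groups did not overlap, and day 3 replicates 1 and 2 lay far above the third. The limma log2 difference of -1.05 (SE 0.27, adjusted p = 0.159) had the smallest p among the members. Without day 3 replicate 3 it was -1.32 with a limma adjusted p of 0.0258, against -0.50 when day 3 replicates 1 and 2 were left out.

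Il6ra, the ligand-binding chain of the interleukin-6 receptor, had 77.9, 55.4 and 54.0 normalized counts at day 28 and 161, 204 and 62.1 at day 3. The libraries of day 3 replicates 1 and 2 were high and day 3 replicate 3 lay inside the day 28 range. The limma log2 difference was -1.03 (SE 0.42, adjusted p = 0.332), -1.54 without day 3 replicate 3 (limma adjusted p = 0.0255) and -0.012 without day 3 replicates 1 and 2. Il6st, the shared signalling chain gp130 of this cytokine family, had 1285, 1159.9 and 1169.6 normalized counts at day 28 and 1433, 1303 and 1329 at day 3. Its groups did not overlap, although the limma log2 difference was only -0.17 (SE 0.09, adjusted p = 0.459). Il4ra, the receptor chain for interleukins 4 and 13, had 43.9, 39.3 and 69.2 normalized counts at day 28 and 182, 104 and 52.3 at day 3. Again day 3 replicate 3 lay inside the day 28 range, and the limma log2 difference was -1.004 (SE 0.44, adjusted p = 0.375).

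Tnfrsf1a, the broadly expressed TNF receptor, had 70.9, 100.005 and 64.5 normalized counts at day 28 and 191, 166 and 88.8 at day 3. Tnfrsf1b, the TNF receptor of microglia and other immune cells, had 38.9, 42.0 and 27.5 normalized counts at day 28 and 91.6, 65.8 and 28.0 at day 3. Both were highest in day 3 replicate 1, then in day 3 replicate 2, and both overlapped between days through day 3 replicate 3. The limma log2 differences were -0.87 (SE 0.32, adjusted p = 0.288) for Tnfrsf1a and -0.63 (SE 0.45, adjusted p = 0.592) for Tnfrsf1b. Without day 3 replicates 1 and 2 they were -0.20 and 0.33.

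The TGF-beta receptors differed little in their means. Tgfbr1, the kinase that signals, averaged 454 ± 24.8 normalized counts at day 28 and 445 ± 102 at day 3 (SD, n = 3 each). Tgfbr2, the ligand-binding chain, had 226, 204 and 208 normalized counts at day 28 and 358, 181 and 152 at day 3. Its day 3 replicate 1 was above all day 28 libraries and the other day 3 libraries were below them, with a log2 difference of -0.014 (SE 0.29, limma adjusted p = 0.989). Il10rb, the shared chain of the interleukin-10 receptor family, had 81.9, 77.7 and 73.9 normalized counts at day 28 and 93.4, 55.5 and 32.9 at day 3. Its day 3 libraries spanned both sides of day 28, and the log2 difference was 0.48 (limma adjusted p = 0.616). Without day 3 replicate 1 it was 0.85.

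**Figure D5:**
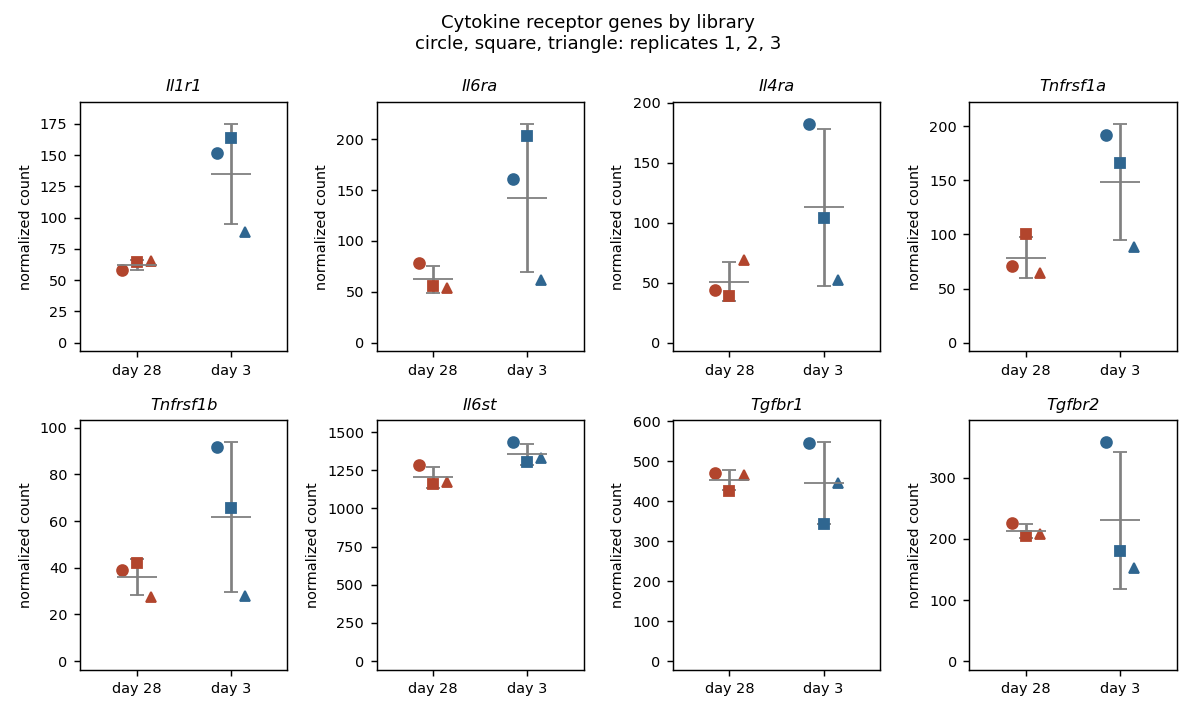
Normalized counts of 8 cytokine receptor genes, with day 28 left and day 3 right, points for replicates and a grey mark and bar for the mean ± SD (n = 3). Day 3 replicates 1 and 2 (circle and square) lie above the other 4 libraries for Il1r1, Il6ra, Il4ra, Tnfrsf1a and Tnfrsf1b, and the Il6st groups are separate but close.

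The members are also described by the libraries in which they were high. Day 3 replicate 1 was the highest library, by a wide or a narrow margin, for 16 of the 30 tested members, beside 20.5% of all tested genes. In 6 members it held at least 5 times the median of the 6 libraries (Cxcl9, Cxcl10, Cxcl11, Cxcl13, Cxcl16 and Ccl5), beside 1.07% of all genes. In 5 of those 6, all but Cxcl16, the filter was met only through that library. The counts of 16 and 6 thus lean on it, and 25 members met the filter without it. The median deviation of the tested members from their own mean was 0.03, -0.06 and -0.11 log2 units in the day 28 libraries and 0.63, -0.04 and -0.21 in the day 3 libraries. Some of the same members are in the next count: day 3 replicates 1 and 2 lay above the other 4 libraries for 9 of 30 members (Ccl9, Cxcl9, Cxcl11, Ackr1, Il1r1, Il6ra, Il4ra, Tnfrsf1a and Tnfrsf1b), beside 11.7% of all genes. They lay below the other 4 for Ccl27a, Cx3cl1 and Ackr3, beside 12.2%. The count of 9 leans on the filter too, since Cxcl9 and Cxcl11 met it only through day 3 replicate 1. These values are descriptions of the libraries, with no test between them.

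Genes of interferon and cytokine signalling and further receptors were read from lists, and limma called 0 in each list. All 21 tested of 23 interferon-stimulated genes had negative differences (median -1.46) and all 21 were highest in day 3 replicate 1, with 4 of them at an unadjusted limma p under 0.05. Isg15, Usp18 and Ifi44 met the filter for testing only through day 3 replicate 1, so their place in these counts leans on that library. Isg15, a ubiquitin-like protein, had a log2 difference of -2.76 (SE 0.95, limma adjusted p = 0.253). B2m, the light chain of MHC class I, had -1.79 (limma adjusted p = 0.259), and Irf7, a regulator of type I interferon genes, had -2.26 (limma adjusted p = 0.355). These genes were thus high in the library in which the CXCR3 ligands were high.

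The 28 genes of cytokine signalling had a median log2 difference of -0.02, with 12 positive, 16 negative and 1 at an unadjusted limma p under 0.05. Irak4, a kinase downstream of Il1r1, had -1.35 (limma adjusted p = 0.300), Ripk1, a kinase downstream of Tnfrsf1a, had -0.82 (limma adjusted p = 0.413), and Smad7, an inhibitor of TGF-beta signalling, had 0.21 (limma adjusted p = 0.415). Of 28 further cytokines, receptors and antagonists, 20 were tested, with a median of -0.16 and with 1 higher and 4 lower at an unadjusted limma p under 0.05. Lifr, the receptor chain that pairs with Il6st, had 567, 625 and 723 normalized counts at day 28 and 880.2, 1001 and 1081 at day 3. Its groups did not overlap, and the log2 difference of -0.63 (SE 0.13) did not pass in limma (adjusted p = 0.0939). Ltbp1, which holds latent TGF-beta in the matrix, had 1.04 (limma adjusted p = 0.132) and Cntfr, a receptor that also signals through Il6st, had -0.31 (limma adjusted p = 0.236).

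Markers of other cell types were read in the same libraries. The summed level of 7 border macrophage and monocyte markers was 35.7 to 73.9 normalized counts at day 28 and 81.5 to 204 at day 3, highest in day 3 replicate 1. Plac8 had 45.8, 1.03 and 0 normalized counts at day 3, against 0 to 0.893 at day 28. Pf4 was instead highest in day 28 replicate 1, at 9.98 normalized counts, and Lyve1 in day 3 replicate 3, at 28.0. The other markers of this list were highest in day 3 replicate 1. Of 8 T cell markers, Cd3d was at 0 in every library, Cd3e was at 0 to 0.893 normalized counts at day 28 and 0 to 3.66 at day 3, and the summed level was 286 to 425 at day 28 and 185 to 245 at day 3, nearly all of it Cd4 and Lck. The summed level of 4 B cell markers was 0.948 to 2.68 normalized counts at day 28 and 4.58 to 16.5 at day 3. Of 4 NK cell markers, summed at 0.948 to 14.0 normalized counts at day 28 and 0 to 10.1 at day 3, Klrb1c was at 0 throughout. Ly6g, the defining neutrophil marker, was likewise at 0 in every library.

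Glial markers did not share a single library pattern. Day 3 replicate 1 was the highest library for 2 of 5 reactive astrocyte markers, 3 of 8 microglia markers and 0 of 4 oligodendrocyte markers. The 5 reactive astrocyte markers summed to 2462 to 2806 normalized counts at day 28 and 3523 to 10064 at day 3, and Gfap had 1800, 2055 and 1896 at day 28, against 7777, 2632 and 2593 at day 3. The 8 microglia markers summed to 3827 to 4648 normalized counts at day 28 and 3491 to 5503 at day 3. Dcn, a fibroblast proteoglycan, was the single marker past the threshold, with 102, 64.3 and 92.9 normalized counts at day 28, 347, 302 and 257 at day 3 and a log2 difference of -1.81 (limma adjusted p = 0.0345). The part of these cells, of cerebellar tissue and of liver transcripts in the values of the chemokine and cytokine genes was not tested.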

How the data were processed

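Per the labels' protocols, stranded libraries were made from polyadenylated brain RNA. The authors deposited log2 values for 56748 genes in 6 libraries. Once the log2 and the added 1 were undone, 100% of values were whole numbers of reads times a constant per library (tolerance 0.001 reads), so the deposited values are counts divided by a size factor (0.822 to 1.12), plus 1. Per the submitters' processing notes the build was GRCm39. Aligner, counter and annotation are not given in the sources used here.

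Genes averaging at least 10 normalized counts were fitted by limma 3.58.1 (R 4.3.3), taking log2(normalized count + 1), with an intensity trend and group as the only term (4 residual degrees of freedom). P-values were adjusted by Benjamini-Hochberg over all 16162 genes. Fold changes on this scale understate those of low genes. The procedure was tested on simulated counts with the same spread in both groups and no outlying library. In the data the day 3 libraries differed more from each other, so that test does not cover this feature. Symbols and shared exons came from GENCODE M21 (52073 identifiers matched), and upstream sequences from RefSeq. No libraries of a group were duplicates: chi-square divided by its degrees of freedom was 8.93 or more for each pair.

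The members and lists were chosen with earlier results of these data known. Every library's value is given for tested members with separated groups or an absolute log2 difference of at least 1, and for members whose highest library held at least 5 times the median. Other members are given where their role group needed them, and list genes past the threshold or among the 3 of smallest p. Cxcr3, Gfap and the marker genes were chosen after their values were seen. Alternatives covered the pseudocount, filter, scaling, variance prior, library weights, voom, a replicate block and leaving out libraries. Figures were drawn with matplotlib 3.10.9. Some genes of the lists are not reported here.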

Additional observations from a re-analysis of the deposited data

How the results depend on the processing

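The count of all genes past the threshold, 31 in limma, was 48 when a mean of 1 normalized count was enough, 68 with no filter beyond 1 read, 48 with upper quartile scaling, 3 with no trend, 74 with a robust prior, 69 with library weights and 0 with voom. Leaving out each library gave 1 to 618. The replicate block gave 0 genes and 0 members. Deviations of same-numbered libraries correlated at 0.03, 0.13 and -0.06, so the numbers were not taken to pair libraries. An alternative chosen after seeing the data left out both day 3 libraries rich in cerebellar transcripts (replicates 1 and 2), assumed the single remaining day 3 library to vary like day 28, and gave 76 genes. Members past the threshold were 0 under 18 of 19 alternatives and 0 to 2 across left-out libraries. The median difference was -0.57 at a mean of at least 1 and with no filter. This shift was larger than the spread of the library medians (pooled SD 0.32). At a mean of at least 50 the median difference was 0.018, a shift within that spread. Members wholly lower at day 28 numbered 7 at a mean of at least 1, 7 with no filter, 2 with upper quartile scaling, 7 without both libraries and 4 to 10 across left-out libraries. Members wholly higher numbered 8 without both libraries and 4 to 8 across left-out libraries. Groups of fewer libraries separate more readily, most of all where a single day 3 library is left. The shares of all genes under these alternatives are not given here, so these separation counts are not read as results about the members. The cause of these shifts was not tested.

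Of 551 member differences recomputed, 535 kept direction and side of the threshold, 14 changed sign and 2 newly passed. Tgfbr2 was 0.026 with upper quartile scaling, 0.11 with library weights, 0.48 without both libraries and -0.26 to 0.35 across left-out libraries. Across left-out libraries Cxcl14 was -0.12 to 0.22, Il34 -0.090 to 0.26 and Tgfbr1 -0.13 to 0.21. Without both libraries Cxcl14 was -0.19, Il34 -0.28, Cx3cl1 -0.044, Cxcl16 0.11 and Tnfrsf1b 0.33. With 3 libraries a day and 17 members under the filter, depth limits what can be said of the inducible genes. Absence of a call does not show equal levels.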

Other observations

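Antagonists and less common cytokines outside the list varied between the same libraries. Il1rn, the secreted antagonist of Il1r1, had 0, 2 and 0 reads at day 28 and 17, 18 and 0 reads at day 3. Il16, a cytokine precursor, had 29.0, 55.4 and 121 normalized counts at day 28 and 637, 555 and 49.9 at day 3, with a log2 difference of -2.15 in limma (adjusted p = 0.353). The cerebellar marker Cbln3 had 2.00, 10.7 and 490.02 normalized counts at day 28 and 4283, 4148 and 13.4 at day 3. Il16 and Cbln3 were both high in day 3 replicates 1 and 2, and within day 28 both were highest in replicate 3. The part of regional tissue in the Il16 values was not tested. Il2rg, the shared chain of the interleukin-2 receptor family, had 5, 4 and 1 reads at day 28 and 47, 2 and 2 reads at day 3. These genes were chosen after their values were seen.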
